A study of Homo sapiens with 12 samples.

Results

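Krüppel-like factors other than KLF1 were followed across 4 groups of arrays of K562, a human leukemia cell line. All probe sets annotated to KLF2, KLF3, KLF4, KLF5, KLF6, KLF9, KLF10 and KLF13 were taken, which gave 14 of the 22215 probe sets tested and 8 of 11963 genes. KLF6 and KLF9 had 3 probe sets each, KLF4 and KLF5 had 2 each, and the other 4 genes had 1 each. Every cell sample was kept without serum in recombinant Wnt3a protein at 100 ng/ml, and RNA was taken after 8 h. One pair of groups was made by stable lentiviral infection with pLKO vectors: knockdown cells carried CXXC5 shRNA, and their controls carried a scrambled shRNA. The other pair was made by transient nucleofection: overexpression cells received CXXC5 in pEGFP-C2, and their controls received empty pEGFP-C2. Each group held 3 arrays. A pair of CXXC5 shRNA clones is named for all knockdown samples together, so clone effects cannot be separated, and the labels do not tell whether replicates were grown apart. Every p-value here therefore covers the array-to-array spread alone, which could be technical.

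KLFs are transcription factors that bind GC boxes and CACCC boxes in DNA through C2H2 zinc fingers at the end of the protein, and they raise or lower transcription depending on the partner proteins they recruit. Several of them, among them KLF2, KLF4, KLF6 and KLF10, are switched on quickly by growth factors, cytokines or stress. In red cell precursors the founding member KLF1 drives globin genes, and KLF3 is known to act against it at shared sites. CXXC5, the protein raised or lowered here, carries a CXXC zinc finger that recognises CpG-containing DNA, and is known as a brake on Wnt signals.

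Facts of the arrays that touch the results are few. Values are log2 expression per probe set, with array medians between 6.64 and 6.70, and arrays of one group correlated at 0.996 to 0.998. CXXC5 itself was read by 0 of the named probe sets, and the groups therefore go by their labels. The difference between the 3' and 5' GAPDH control probe sets, a sign of RNA and labelling quality, lay at 0.227 to 0.335 log2 in 11 arrays, whereas scrambled shRNA replicate 3 had 0.87. For K562 markers, 7 genes were read, and the embryonic globins HBE1 and HBZ averaged at least 11.08 and 11.88 in every group. Brightest probe sets of 5 endothelial markers averaged 3.92 (CDH5) to 5.75 (TEK), those of 3 monocyte markers 4.70 (CD14) to 10.1 (LYZ), those of 4 lymphoid markers 5.46 (CD79A) to 10.9 (CD3D), and those of 5 fibroblast and epithelial markers 3.88 (COL3A1) to 11.2 (EPCAM). In these bulk samples, fewer cells of a kind and less RNA per cell cannot be told apart.

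Promoter windows are shown for KLF2, KLF6 and KLF9, the genes that passed a test in the knockdown or overexpression comparison below. KLF2 and KLF6 went in the opposite direction to KLF9 with knockdown, and CXXC5 is known to recognise CpG. Whether window composition has any part in these directions was not tested. The windows run from 250 bases before to 50 after the gene start and are RefSeq sequence of build GRCh38.p14, 5′ to 3′ on the gene's strand. Capitals mark GC boxes (GGGCGG) and CACCC boxes (CACCC), searched on both strands.
KLF2, chr19:16324576-16324875, plus strand:
KLF2: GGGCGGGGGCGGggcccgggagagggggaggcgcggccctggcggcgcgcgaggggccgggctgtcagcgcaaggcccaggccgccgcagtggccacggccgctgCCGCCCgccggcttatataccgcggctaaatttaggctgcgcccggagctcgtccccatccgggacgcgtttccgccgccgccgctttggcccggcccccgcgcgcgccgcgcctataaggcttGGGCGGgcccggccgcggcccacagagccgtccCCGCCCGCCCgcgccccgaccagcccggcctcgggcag
KLF6, chr10:3785160-3785459, minus strand:
KLF6: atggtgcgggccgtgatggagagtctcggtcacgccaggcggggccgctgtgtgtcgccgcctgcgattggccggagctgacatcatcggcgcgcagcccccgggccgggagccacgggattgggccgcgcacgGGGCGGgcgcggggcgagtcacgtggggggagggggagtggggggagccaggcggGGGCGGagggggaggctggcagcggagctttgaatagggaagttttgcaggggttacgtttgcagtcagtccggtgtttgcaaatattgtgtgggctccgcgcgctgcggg
KLF9, chr9:70414608-70414907, minus strand:
KLF9: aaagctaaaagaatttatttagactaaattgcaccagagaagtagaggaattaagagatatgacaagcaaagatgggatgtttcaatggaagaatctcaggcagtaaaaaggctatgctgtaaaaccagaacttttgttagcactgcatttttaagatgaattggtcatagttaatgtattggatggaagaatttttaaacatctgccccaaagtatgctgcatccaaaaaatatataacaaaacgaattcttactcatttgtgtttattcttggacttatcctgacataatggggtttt

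The windows differed widely in composition. That of KLF2 held 49 CpG dinucleotides and 6 GC box matches, of which a pair near the start overlaps, in a sequence of 80.7% G and C. That of KLF6 held 33 CpG and 2 GC boxes at 70.7% G and C, and that of KLF9 held 1 CpG and 0 GC boxes at 32.7%. Over all 35116 promoter windows in the table, 98.7% had as many CpG as KLF2 or fewer, 84.4% as many as KLF6 or fewer, and 11% as many as KLF9 or fewer. These windows follow the start sites the table lists, and other start sites of these genes were not examined. A window was found for 6 of the 8 members, and KLF5 had 2, which gave 7 windows. KLF4 held 33 CpG, KLF13 held 43, and the KLF5 windows held 4 and 37. These genes were not called with knockdown. KLF4 stood at 0.34 at 221841_s_at and 0.13 at 220266_s_at, in the direction of KLF9. KLF13 stood at -0.27, in the direction of KLF2 and KLF6, and KLF5 at 0.12 and -0.08 at its 2 probe sets.

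Other motifs in these windows were searched on both strands, and matches can overlap one another. The GC box was present in 45.0% of all windows and the CACCC box in 59.9%; no CACCC box was matched in KLF2, KLF4, KLF6 or KLF9. KLF2 held a match to the MEF2 motif, present in 2.73% of windows, at position -120 from the start, and 2 matches to the EGR motif GCGNGGGCG (9.43% of windows), both of which overlap its GC boxes. KLF6 held 1 EGR match, which overlaps a GC box, and 1 match to the TCF motif CTTTGA (12.9%), at position -34. KLF6, KLF9, KLF13 and the second KLF5 window each held 2 CCAAT matches (34.6%). None of the 7 windows matched the CRE TGACGTCA (1.85%), the AP-1 motif TGANTCA (7.71%), the kappaB motif (22.6%) or the CArG box (1.29%), and TATAAA (11.5%) was matched in the first KLF5 window alone.

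**Figure D1:**
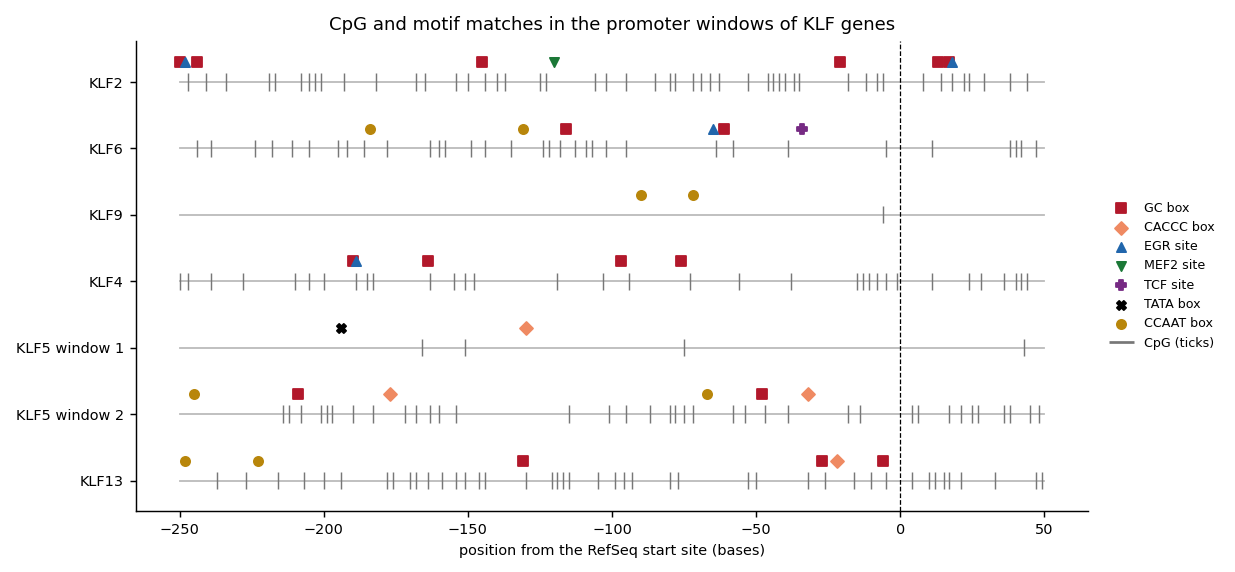
CpG dinucleotides (grey ticks) and motif matches (symbols) in the promoter windows of 6 KLF genes, plotted by distance in bases from the RefSeq start site (dashed line). CpG ticks are dense in KLF2 (49), KLF13 (43), the second KLF5 window (37), KLF4 and KLF6 (33 each), and sparse in the first KLF5 window (4) and KLF9 (1).

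KLF6 showed the largest knockdown change of the family. KLF6 is an early response factor and a growth suppressor in several epithelia. Its probe set 208961_s_at read 8.55, 8.43 and 8.49 log2 in knockdown arrays, against 9.31, 9.43 and 9.13 in scrambled shRNA arrays. All knockdown arrays lay below all scrambled shRNA arrays. The means were 8.49 ± 0.06 with knockdown and 9.29 ± 0.15 with scrambled shRNA (SD, n = 3 each), so KLF6 fell by 0.80 log2 (SE 0.0982, 1.74-fold lower, limma adjusted p = 0.000479).

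The other KLF6 probe sets did not pass the test. Probe set 208960_s_at read 7.14, 6.81 and 7.11 with knockdown, against 7.92, 8.06 and 7.03 with scrambled shRNA. The scrambled shRNA array that lay low was replicate 3, the one with the large GAPDH 3' to 5' difference, and its part in the result was not tested. The change was -0.65 (adjusted p = 0.0831) with that array and -0.97 (adjusted p = 0.00189) without it, while 208961_s_at stood at -0.88 without it. Probe set 211610_at stood at -0.14 (95% interval -0.43 to 0.15). Over the 12 arrays 208960_s_at and 208961_s_at correlated at 0.85 and both correlated with 211610_at at -0.09 and -0.17, a description of points that share arrays.

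The level of KLF6 in the scrambled shRNA arrays stood apart from all other groups. At 208961_s_at the overexpression arrays averaged 8.58 ± 0.15 and the empty vector arrays 8.25 ± 0.12 (SD, n = 3 each). The order was scrambled shRNA, overexpression, knockdown and empty vector, and only overexpression and knockdown, neighbours in it, overlapped in their ranges. Scrambled shRNA was above empty vector by 1.04 log2 (SE 0.0982, adjusted p = 3.38e-05). Set against empty vector, which was added after seeing the data, the knockdown arrays differed by 0.24 (95% interval 0.03 to 0.46, adjusted p = 0.184). The KLF6 difference thus had opposite signs against the scrambled shRNA and empty vector controls. The call was in the scrambled shRNA comparison alone, and these comparisons share arrays. Knockdown and empty vector arrays also differ in delivery, by lentivirus or by nucleofection.

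KLF2 also fell with knockdown. KLF2 keeps endothelial cells and T cells quiescent and is induced through the kinase ERK5 and MEF2 factors. It read 5.04, 4.93 and 4.85 with knockdown, against 5.31, 5.37 and 5.57 with scrambled shRNA. The groups did not overlap, and KLF2 fell by 0.48 log2 (SE 0.0886, 1.39-fold lower, adjusted p = 0.00562). The call held without each of the 6 arrays in turn, at -0.53 to -0.40. Against empty vector, at 5.08, 5.11 and 5.33, the knockdown arrays were also all lower, at -0.23 (adjusted p = 0.159). The KLF2 probe set was dim, at the 29.4th percentile of mean level over all probe sets.

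KLF9 went the other way. KLF9 is induced by glucocorticoids and thyroid hormone and is known to restrain proliferation. Its probe set 203543_s_at read 7.30, 7.20 and 7.25 with knockdown, against 6.89, 6.91 and 6.71 with scrambled shRNA. All knockdown arrays were higher, and KLF9 rose by 0.41 log2 (SE 0.102, 1.33-fold, adjusted p = 0.0244). The call ended without scrambled shRNA replicate 3 (0.35, adjusted p = 0.0835), knockdown replicate 1 (0.39, adjusted p = 0.0833) or knockdown replicate 3 (0.42, adjusted p = 0.0661). Probe set 203542_s_at stood at 0.23 (adjusted p = 0.146), also with no overlap, and 203541_s_at at 0.16 (adjusted p = 0.441). In knockdown minus empty vector the 3 probe sets stood at 0.10, -0.10 and 0.16.

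The remaining members did not pass the test with knockdown. KLF4, a reprogramming factor that also drives monocyte differentiation, read 6.57, 6.04 and 6.61 at 221841_s_at with knockdown, against 5.93, 6.10 and 6.17 with scrambled shRNA. Knockdown replicate 2 lay within the scrambled range; the change was 0.34 (adjusted p = 0.14), and 0.52 (adjusted p = 0.00994) without that array. KLF10, a gene induced early by TGF-beta, read 9.56, 9.29 and 9.42 with knockdown, against 9.70, 9.65 and 9.76 with scrambled shRNA. Its groups did not overlap, and its change was -0.28 (95% interval -0.49 to -0.07, adjusted p = 0.0897). KLF3, a repressor that recruits CtBP proteins, stood at -0.13 (95% interval -0.36 to 0.09), and KLF13, an activator of CCL5 in T cells, at -0.27 (95% interval -0.59 to 0.04). KLF5, a growth-promoting factor of epithelia, stood at 0.12 and -0.08 at its 2 dim probe sets, and the dim KLF4 probe set 220266_s_at at 0.13.

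**Figure D2:**
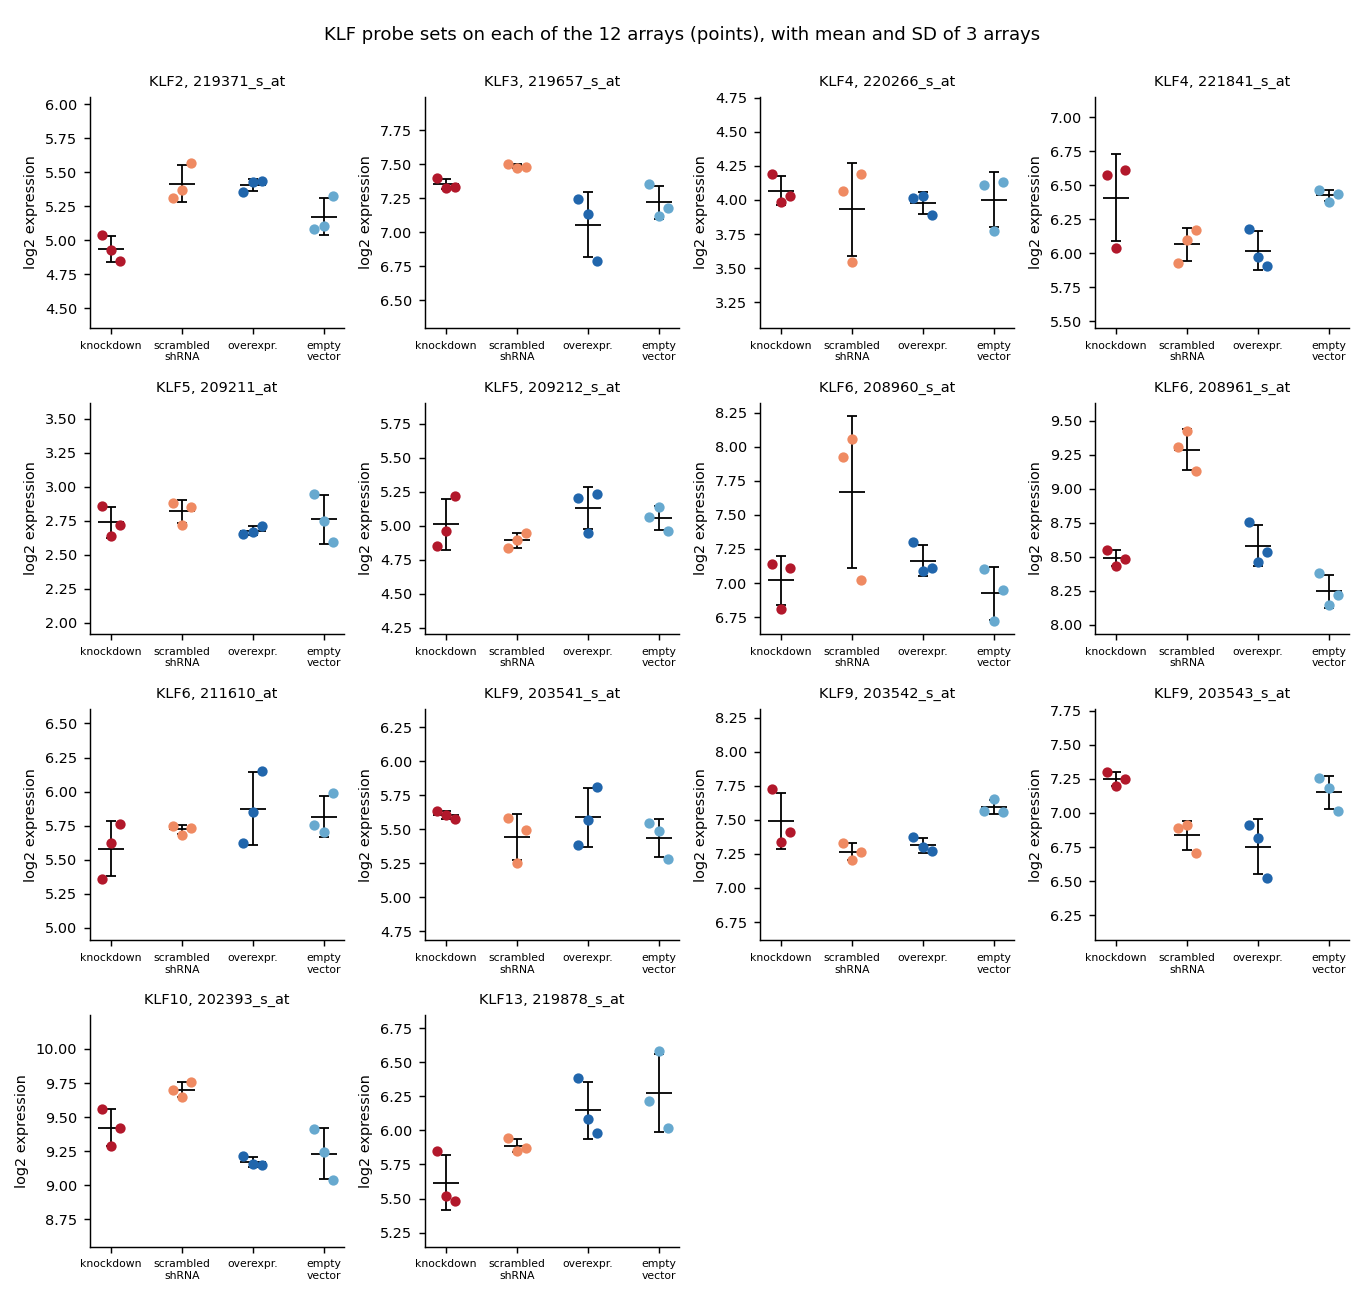
Log2 expression of the 14 KLF probe sets, 1 panel each with axes of equal length, in knockdown, scrambled shRNA, overexpression and empty vector arrays; points are arrays, bars are mean and SD of 3 arrays. At KLF6 208961_s_at the scrambled shRNA arrays, at 9.13 to 9.43, sit above every other array, and at KLF2 the knockdown arrays, at 4.85 to 5.04, sit below every other array.

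KLF13 was lowest in the knockdown arrays. It read 5.85, 5.52 and 5.48 with knockdown, 5.94, 5.85 and 5.87 with scrambled shRNA, 6.38, 6.08 and 5.98 with overexpression and 6.22, 6.58 and 6.02 with empty vector. Knockdown arrays lay below the arrays of all other groups, by a narrow gap to scrambled shRNA. In knockdown minus empty vector, chosen after seeing the data, KLF13 fell by 0.66 log2 (SE 0.146, adjusted p = 0.0368), the 1 call among the 14 probe sets, where 3.24% of all probe sets were called, 2.07% up and 1.17% down. Groups did not overlap for 4 of the 14, where 28.4% of all did not. That call ended without empty vector replicate 1 or 2 or knockdown replicate 2 or 3, at adjusted p = 0.0549, 0.133, 0.116 and 0.112. Scrambled shRNA arrays, lentiviral like knockdown, also stood below empty vector, at -0.38 (adjusted p = 0.0701) without overlap. Against scrambled shRNA the knockdown change was -0.27 (adjusted p = 0.28). Delivery and CXXC5 shRNA cannot be told apart in knockdown minus empty vector.

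Over the family, 3 of 14 probe sets were called with knockdown, 1 up and 2 down, where 9.83% of all 22215 probe sets were called, 6.13% up and 3.70% down. At unadjusted p under 0.05 there were 7 of 14, where 24.5% of all probe sets passed. Groups did not overlap for 7 of the 14, where 29.2% of all probe sets did not. The median change was -0.11 over the 14 and -0.01 over all probe sets, and the range was -0.80 to 0.41.

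With overexpression, KLF9 was the 1 member called, and it fell. Probe set 203543_s_at read 6.91, 6.81 and 6.52 with overexpression, against 7.26, 7.18 and 7.01 with empty vector. All overexpression arrays were lower, by 0.40 log2 on average (SE 0.102, 1.32-fold lower), with an adjusted p of 0.04996, which is at the threshold of 0.05. The call ended without any of the 3 empty vector arrays and without overexpression replicate 2 or 3, with adjusted p from 0.0518 to 0.166. Probe set 203542_s_at read 7.37, 7.30 and 7.27, against 7.56, 7.66 and 7.56 with empty vector, without overlap, at -0.28 (adjusted p = 0.119), while 203541_s_at stood at 0.15 (adjusted p = 0.583).

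Members that did not pass included KLF6 and KLF4. KLF6 at 208961_s_at read 8.75, 8.46 and 8.54 with overexpression, against 8.38, 8.14 and 8.22 with empty vector. Its groups did not overlap, with a change of 0.34 (95% interval 0.12 to 0.55, adjusted p = 0.083), which passed with quantile normalization (adjusted p = 0.041), with the dimmest probe sets left out (0.0448) and with a trended, robust prior (0.0294). KLF4 at 221841_s_at read 6.18, 5.97 and 5.90 with overexpression, against 6.46, 6.38 and 6.43 with empty vector, a change of -0.41 (adjusted p = 0.128). KLF2 read 5.36, 5.43 and 5.43, against 5.08, 5.11 and 5.33 with empty vector, a change of 0.23 (adjusted p = 0.191). KLF10 stood at -0.06, KLF13 at -0.12, KLF3 at -0.16, and KLF5 at 0.07 and -0.08.

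The call of 1 in 14 compared with 4.19% of all probe sets in the overexpression comparison, 2.27% up and 1.92% down. At unadjusted p under 0.05 there were 5 members of 14, where 17.2% of all probe sets passed, and the groups of 5 did not overlap, where 24.7% of all probe sets did not. The median change was -0.04 over the members and 0.00 over all probe sets.

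The effects of overexpression and knockdown, each against its own control, were set against each other in one contrast. It called 5 of 14 probe sets, 2 up and 3 down, where 14.9% of all were called, 5.82% up and 9.1% down. The difference, overexpression effect minus knockdown effect, was 1.13 log2 for KLF6 at 208961_s_at (SE 0.139, adjusted p = 0.000232) and 0.71 for KLF2 (SE 0.125, adjusted p = 0.00255). It was -0.81 and -0.51 for KLF9 at 203543_s_at and 203542_s_at (adjusted p = 0.00266 and 0.0195), and -0.75 for KLF4 at 221841_s_at (adjusted p = 0.02). KLF6 and KLF2 thus had positive differences, and KLF9 and KLF4 negative ones. KLF6 at 208960_s_at stood at 0.89 (adjusted p = 0.0729), or 1.21 (adjusted p = 0.00131) without scrambled shRNA replicate 3. The KLF4 call ended without overexpression replicate 3 (adjusted p = 0.0524), and the 203542_s_at call without empty vector replicate 2 (adjusted p = 0.0525). This contrast equals overexpression minus knockdown plus the gap between controls, scrambled shRNA minus empty vector. That gap was 1.04 for KLF6 at 208961_s_at, 0.24 for KLF2 and -0.36 for KLF4 at 221841_s_at. For KLF9 it was -0.32 at 203543_s_at and -0.33 at 203542_s_at. KLF6 at 208961_s_at averaged 8.58 with overexpression and 8.49 with knockdown, with overlapping ranges. A difference therefore need not be opposite responses to CXXC5.

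**Figure D3:**
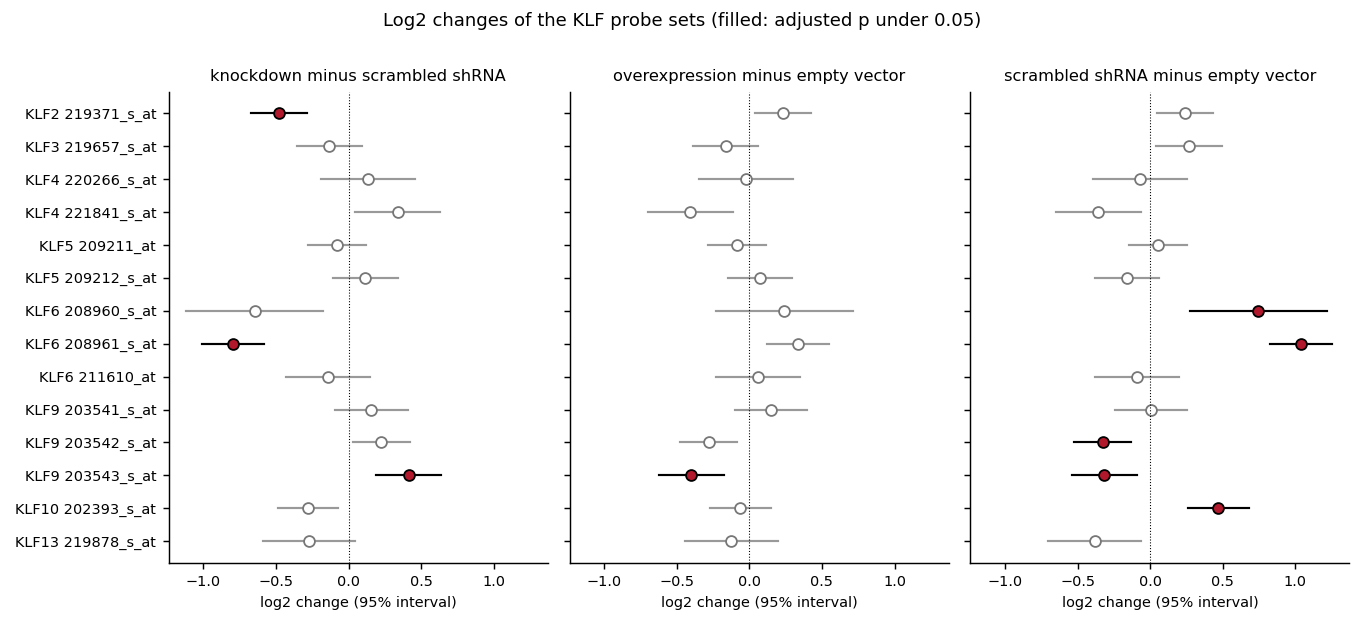
Log2 change (points) with 95% interval (bars) of the 14 KLF probe sets in knockdown minus scrambled shRNA, overexpression minus empty vector, and scrambled shRNA minus empty vector; filled points passed at adjusted p under 0.05. KLF6 208961_s_at stands at -0.80, 0.34 and 1.04 in these comparisons, and KLF9 203543_s_at at 0.41, -0.40 and -0.32.

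The control arrays differed from each other in more KLF probe sets than either CXXC5 comparison. Scrambled shRNA minus empty vector called 5 of 14, 3 up and 2 down, where 27.7% of all probe sets were called, 13.4% up and 14.3% down, so the share among the members was near that of the array as a whole. Groups did not overlap for 8 of the 14, where 43.5% of all did not. KLF6 was higher in scrambled shRNA by 1.04 at 208961_s_at and by 0.74 at 208960_s_at (adjusted p = 0.0241), where the groups overlapped through scrambled shRNA replicate 3, and 211610_at stood at -0.09. KLF10 read 9.70, 9.65 and 9.76 with scrambled shRNA, against 9.41, 9.24 and 9.04 with empty vector, without overlap, a difference of 0.47 (SE 0.0952, adjusted p = 0.004). KLF9 was lower in scrambled shRNA, by 0.33 at 203542_s_at (adjusted p = 0.0194) and by 0.32 at 203543_s_at (adjusted p = 0.0381). The calls of KLF6 at 208961_s_at and of KLF10 held without each of the 6 arrays in turn. That of KLF9 at 203543_s_at held only without empty vector replicate 3 (adjusted p up to 0.128 otherwise), and that of KLF6 at 208960_s_at only without empty vector replicate 1 or scrambled shRNA replicate 3 (up to 0.0937 otherwise). The call of KLF9 at 203542_s_at ended without replicate 2 of empty vector or of scrambled shRNA (0.0733 and 0.0646), and either omission left a count of 2. Delivery, by lentivirus or by nucleofection, differs between these controls together with the insert, so these cannot be told apart.

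KLF1 and other relatives of the family were read as a list. Of 18 further KLF and SP genes, 10 had a probe set, and the brightest of each gene was read. With knockdown 0 rose and 1 fell, where 11.8% of 11963 genes were called, 7.39% up and 4.42% down. SP2, a member of the SP family, fell by 0.40 (adjusted p = 0.00559) at 1 of its 2 probe sets. That probe set was called at 0.30 in scrambled shRNA minus empty vector. In knockdown minus empty vector it stood at -0.10 without a call. The erythroid factor KLF1 stood at 0.11 with knockdown and at -0.20 with overexpression, SP3 at -0.06 and -0.12, and KLF11, a TGF-beta-inducible repressor, at -0.15 and 0.17. With overexpression 0 of the 10 passed, where 5.25% of genes did, 2.83% up and 2.42% down. List medians were -0.07 with knockdown and 0.09 with overexpression, against -0.01 and 0.00 over all genes.

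Among proteins that KLFs recruit or that degrade them, 13 of 15 had a probe set. With knockdown 1 rose and 2 fell, where 11.8% of all genes were called. CTBP1, a corepressor that KLF3 recruits, rose by 0.33 (adjusted p = 0.00704), and its relative CTBP2 fell by 0.51 (adjusted p = 0.0176). That was 1 call among 6 CTBP2 probe sets, against 2 of 3 for CTBP1. FHL3, a partner of KLF3, fell by 0.34 (adjusted p = 0.0346). In scrambled shRNA minus empty vector, CTBP1, CTBP2 and FHL3 were called with the opposite signs, at -0.32, 0.35 and 0.47. In knockdown minus empty vector they stood at 0.01, -0.16 and 0.13, without a call at these probe sets. Overexpression called 0 of 13, where 5.25% of all genes were called. List medians were 0.08 with knockdown and -0.06 with overexpression, against -0.01 and 0.00 over all genes.

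Of 15 kinases and factors upstream of KLF genes, 14 had a probe set, and 0 passed at the brightest one with knockdown or with overexpression. Over all genes, 11.8% were called with knockdown and 5.25% with overexpression. FOXO1 stood at -0.08 with knockdown and 0.28 with overexpression, where 1 of its 2 probe sets was called. MAPK7, which encodes ERK5, stood at -0.26 with knockdown (adjusted p = 0.1) and 0.16 with overexpression. MEF2D stood at -0.15 and 0.30 at its brighter probe set, while the dimmer of its 2 was called with knockdown. FOXO3, which like FOXO1 is known to induce KLF2 in T cells, stood at 0.27 and -0.37. Scrambled shRNA minus empty vector called 4 of the 14 up and 2 down, where 29.4% of all genes were called. FOXO3 at -0.42 and MEF2D at 0.43 were among them, while MAPK7 and FOXO1 stood at 0.16 and 0.07 without a call at these probe sets. In knockdown minus empty vector FOXO3 and MEF2D stood at -0.15 and 0.28 without a call. List medians were -0.07 and 0.13, against -0.01 and 0.00 over all genes.

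Genes known as KLF targets moved both ways. Of 17, 15 had a probe set. With knockdown 2 rose and 2 fell, where 11.8% of all genes were called. CDKN1A, a cell cycle inhibitor that KLF4 and KLF6 are known to induce, fell by 0.84 (adjusted p = 7.25e-05), and PDGFA, a growth factor gene that KLF5 activates, fell by 0.56 (adjusted p = 0.0103). CDKN1A stood 1.18 higher in scrambled shRNA than in empty vector (adjusted p = 2.47e-06), and knockdown minus empty vector called it in the opposite direction, at 0.33 (adjusted p = 0.0457). SMAD7, a TGF-beta inhibitor that KLF10 represses, rose by 0.74 (adjusted p = 8.91e-05), and the stress factor ATF3 rose by 0.40 (adjusted p = 0.0307). In scrambled shRNA minus empty vector SMAD7 and ATF3 were called at -0.44 and 0.35. PDGFA stood at 0.23 there, without a call at this probe set. In knockdown minus empty vector SMAD7 and ATF3 were called at 0.30 and 0.74, and PDGFA stood at -0.33 without a call. With overexpression 3 rose and 2 fell, where 5.25% of all genes were called. The cyclin gene CCND1 stood at -0.40 with knockdown and 0.27 with overexpression, with the dimmer of its 2 probe sets called in each. The chemokine gene CCL5, a KLF13 target, rose by 0.79 (adjusted p = 0.0031), CDKN1A by 0.53 (adjusted p = 0.00273) and the lymphocyte receptor S1PR1, a KLF2 target, by 0.41 (adjusted p = 0.0449). THBD, which encodes thrombomodulin and is induced by KLF2 in endothelium, fell by 0.65 (adjusted p = 0.0218) at 1 of its 2 probe sets. The probe sets of S1PR1, THBD and CCL5 were dim, at the 22.7th, 28.3rd and 35.5th percentiles of mean level over all probe sets. SMAD7 fell by 0.68 (adjusted p = 0.000288). Scrambled shRNA minus empty vector called 3 of the 15 up and 5 down, where 29.4% of all genes were called. THBD at -0.67 and CCL5 at -0.47 were among them. List medians were -0.01 with knockdown and -0.03 with overexpression, against -0.01 and 0.00 over all genes.

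Markers of other cells were read beside these results. CD3D, a T cell gene with a bright probe set here, differed at -0.35 with knockdown (adjusted p = 0.0328) and 0.38 with overexpression (adjusted p = 0.04). Scrambled shRNA minus empty vector called CD3D at 0.35 (adjusted p = 0.0142), and in knockdown minus empty vector it stood at 0.01 without a call. CD3E, CD79A and NKG7 did not pass with knockdown or overexpression. The summed log2 level of these 4 lymphoid markers was 27.7 to 28.2 in knockdown, 28.2 to 28.9 in scrambled shRNA, 28.7 to 29.4 in overexpression and 28.1 to 28.6 in empty vector arrays. For the 7 K562 markers the sums were 77.8 to 77.8, 78.5 to 78.7, 76.8 to 77.1 and 77.0 to 77.3 in the same groups. Among the K562 markers, HBE1, HBZ and TFRC, the transferrin receptor, fell with knockdown by 0.56, 0.44 and 0.43, and the erythroid factor GATA1 rose by 0.47. With overexpression HBE1 and TFRC rose by 0.27 and 0.43, and HBZ fell by 0.35. Scrambled shRNA stood above empty vector by 0.82 for HBZ, 0.72 for HBE1 and 0.39 for TFRC and at -0.60 for GATA1, all called. HBE1 was called at 1 of its 2 probe sets in each of the knockdown, overexpression and control comparisons. Against empty vector, knockdown arrays were higher in HBZ by 0.38 (adjusted p = 0.0112), and HBE1, TFRC and GATA1 stood at 0.16, -0.04 and -0.13 without a call. The part of these genes in the KLF results was not tested. By the brightest probe set of each gene, 0 of 5 endothelial, 3 monocyte and 5 fibroblast and epithelial markers were called with knockdown or overexpression, while 1 of the 4 COL1A1 probe sets was called with knockdown.

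**Figure D4:**
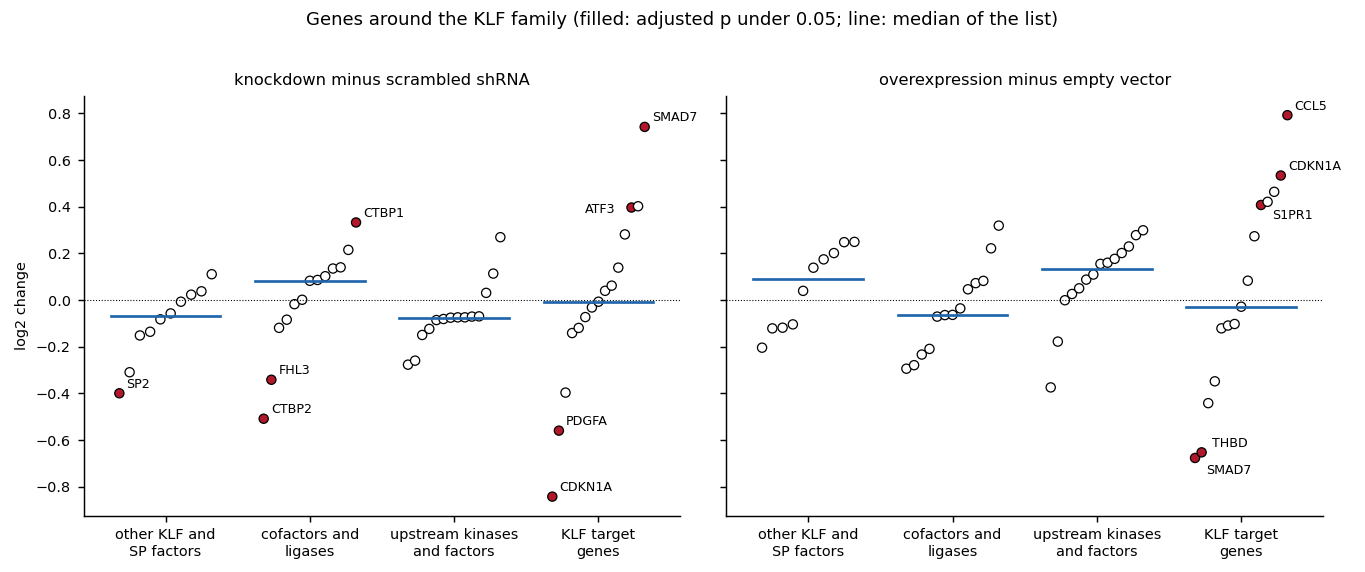
Log2 change of single genes (points) in 4 lists around the KLF family, with knockdown minus scrambled shRNA on the left and overexpression minus empty vector on the right; filled, named points passed at adjusted p under 0.05 and lines are list medians. The KLF target genes spread most, from CDKN1A at -0.84 to SMAD7 at 0.74 with knockdown, while list medians stay between -0.07 and 0.13.

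For KLF genes called in the knockdown or overexpression comparison, the genes of most similar pattern were found by Pearson correlation of brightest probe sets over the 12 arrays, among 11963 genes; the points share group structure, so r is a description. KLF6 was most like KDM3A, a histone demethylase (r = 0.98), and USP3, a deubiquitinase (r = 0.98). KDM3A averaged 9.33 with knockdown, 9.74 with scrambled shRNA, 9.38 with overexpression and 9.11 with empty vector. KLF2 was most like FBXO46 (r = 0.97) and TMEM87A (r = 0.94). FBXO46 averaged 8.53 with knockdown, 8.92 with scrambled shRNA, 8.94 with overexpression and 8.74 with empty vector. KLF9, at 203542_s_at, was most like the proteasome assembly gene PSMD5 (r = 0.95) and ZNF609 (r = 0.94).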

How the data were processed

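Total RNA, 500 ng a sample, was hybridised to 12 Affymetrix 3' arrays. The deposited log2 values, 1 per probe set and array, were made with Affymetrix Expression Console, per the submitters' processing notes; no version or summarisation method is stated, and the log2 scale was inferred from the range, 2.07 to 14.4. Array medians were already alike in the deposited values. Detection calls and scan batches were not used here. Precision is set by having 3 arrays a group.

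Of 22277 probe sets, 62 controls were left out. The platform annotation paired 19064 of the rest with 1 symbol, 1043 with several and 2108 with none; only the first were named. All 22215 were fitted with limma 3.58.1 in R 4.3.3 (lmFit, 1 coefficient per group over 12 arrays, 8 residual degrees of freedom, eBayes), two-sided, with Benjamini-Hochberg adjustment over all probe sets. A probe set rose or fell at adjusted p under 0.05, and 95% intervals come from the same fit. Genes were named by a written rule: all members, called genes of 4 KLF-related lists and up to 3 others of each, and the 2 genes most correlated with each KLF gene called, at any probe set, in the knockdown or overexpression comparison. Members and lists were chosen with earlier results of these data known. The main fit did not pair the samples by replicate number, and whether the numbers mark pairs is not known. Alternatives were quantile normalization, median centring, leaving out the dimmest 40% of probe sets, 1 probe set per gene, fits on 6 arrays, a trended robust prior, a replicate block and leaving out each array. Figures were drawn with matplotlib 3.10.9.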

Additional observations from a re-analysis of the deposited data

How the results depend on the processing

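The knockdown count of 3 was 2 to 4 under all alternatives, and leaving out each array in turn also gave 2 to 4. The probe sets called were not always the same. Without scrambled shRNA replicate 3 the calls were 0 up and 3 down. Without the dimmest 40% they were 1 up and 2 down, although KLF2 was not tested there. The overexpression count of 1 was 2 with quantile normalization, without the dimmest 40% of probe sets, and with the trended prior, and 0 with 1 probe set per gene and with the 6 arrays compared; leaving out arrays gave 0 to 1. The control count of 5 was 3 with 1 probe set per gene, where another KLF6 and another KLF9 probe set are not tested, 7 with median centring and with the trended prior, 6 without the dimmest 40%, and 2 to 6 without single arrays. The count of 5 for the difference of effects was 4 to 6 without single arrays. With the replicate block the counts were 3 with knockdown, 1 with overexpression, 7 between controls and 5 for the difference; KLF3 (adjusted p = 0.0473) and KLF13 (adjusted p = 0.0429) were then also called between controls. Same-numbered arrays correlated at -0.10 to 0.30 in their deviations from group means. Arrays of different numbers were not compared in this way, so these values cannot decide whether the numbers pair the arrays. The main fit left them unpaired.

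KLF2 and the KLF4, KLF5, KLF6 211610_at and KLF9 203541_s_at probe sets below the dimmest 40% gave no value under that filter. Directions turned for uncalled values near 0. With quantile normalization KLF9 203541_s_at between controls stood at -0.047. Without single arrays, overexpression changes ranged over -0.14 to 0.039 for KLF4 220266_s_at, -0.17 to 0.0089 for KLF5 209211_at, -0.080 to 0.19 for KLF6 211610_at, -0.16 to 0.030 for KLF10 and -0.25 to 0.031 for KLF13. The knockdown change of KLF4 220266_s_at ranged over -0.059 to 0.26, and in knockdown minus empty vector KLF6 208960_s_at over -0.0060 to 0.20. Control differences ranged over -0.20 to 0.12 for KLF4 220266_s_at, -0.029 to 0.15 for KLF5 209211_at and -0.073 to 0.10 for KLF9 203541_s_at. The causes of these turns were not tested.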
